A study of Mus musculus with 18 samples.

Results

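RNA made in wild-type (WT) mouse embryonic stem (mES) cells during the last 40 min before harvest was compared with RNA made during the last 20 min. The 6 libraries described here are all those of 18 in the series that carry the WT genotype and a labelling time of 20 min (3 libraries) or 40 min (3 libraries). All cells received 5-ethynyl uridine (EU) at 1 mM, so there is no unlabelled group, and the shorter time is the reference. The other libraries were WT cells labelled for 10 min (3 libraries) and Tet2-/- cells labelled for 10, 20 or 40 min (3 libraries each); both genotypes were grown in serum with LIF, the GSK3 inhibitor CHIR99021 and the MEK inhibitor PD0325901. Each genotype was a single line received from another laboratory, and the 3 replicates of a group were dishes of that line seeded at equal density, so the errors below measure the spread between dishes and say nothing of other lines. Reads of *Tet2* were present in the libraries labelled Tet2-/-, at 583 to 596 CPM (reads scaled to a common library size) at 20 min against 662 to 690 CPM in WT; counts over a whole gene cannot show the loss of a part of it.

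EU is a uridine analogue that cells build into RNA as it is transcribed, and its alkyne group lets labelled RNA be tagged with biotin and captured on streptavidin beads. A short pulse captures mostly unspliced RNA that is still being transcribed. With a longer pulse, finished and spliced RNA accumulates beside it, and an RNA that is degraded soon after it is made stops accumulating before a stable RNA does. The mRNAs of immediate early genes and of many transcription factors and signalling regulators are known to be short-lived, whereas those of ribosomal proteins and metabolic enzymes are known to be stable.

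Each library held between 18929993 and 23069143 reads assigned to genes, and between 79017 and 153195 reads of the ERCC synthetic RNAs that had been added in proportion to total RNA. The counts covered whole gene spans, introns included. Among genes over 1000 bases that lie inside an intron of a well-covered gene on the same strand, 1085 of 1087 (99.8%) had 0 reads, against 45 of 710 (6.34%) when the outer gene was on the other strand. A gene that overlaps another on its strand therefore lost reads in the counting, and *Sox2*, which lies within *Sox2ot*, had 0 reads in all 6 libraries. Apart from *Sox2*, the pluripotency list marked the cells as labelled: with *Sox2* at 0, its 29 members summed to 5774 to 5881 CPM at 20 min and 5978 to 6127 CPM at 40 min. The 19 genes of a feeder and fibroblast list, some of which mES cells also express, summed to 1101 to 1151 CPM at 20 min and 1212 to 1256 CPM at 40 min. Its defining markers were low but moved with the labelling time, their sum over 10 genes being 18.1 to 20.2 CPM at 20 min (1 gene at or under 3 reads) and 22.4 to 24.7 CPM at 40 min (2 genes); their part in the results was not tested, and in such bulk samples more cells of a type cannot be told apart from more RNA per cell. Reads mapped outside genes also moved, making up 15.9% to 16.9% at 20 min and 13.2% to 13.9% at 40 min (two-sided exact permutation p = 0.1, the smallest that 3 against 3 allows), and the part of this shift in the results was not tested.

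The labelled RNA rose between 20 and 40 min, and it rose by less than the labelling time did. At 20 min the 3 libraries gave 144, 157 and 140 gene reads per ERCC read (147 ± 8.86, SD, n = 3). At 40 min they gave 243, 259 and 239 (247 ± 10.2, SD, n = 3), a ratio of 1.68 or 0.75 on the log2 scale. All libraries at 40 min lay above all those at 20 min (two-sided exact permutation p = 0.1, the smallest possible here). Over protein-coding genes alone the ratio was also 1.68. ERCC reads corrected for the amount of captured RNA per amount of total RNA, so a change in total RNA per cell would not show in this measure.

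Gene by gene, 19910 genes held enough reads to be tested, 15158 of them protein-coding and 4752 of other biotypes. Per ERCC read, 12475 genes (62.7% of those tested) rose and 47 (0.236%) fell at an adjusted p under 0.05 (edgeR quasi-likelihood test, Benjamini-Hochberg adjustment). The median log2 change was 0.64, with quartiles of 0.37 and 0.84. Tested against a doubling, which is what RNA made at a constant rate with no loss would give, 8237 genes (41.4%) rose by less than 2-fold and 85 (0.427%) by more. The 85 included *Fgf4*, *Zfp296*, *Plk2*, *Ccng1*, *Klf10*, *Mt1*, *Mt2*, *Sall4*, *Slc38a2*, which encodes an amino acid transporter, and *Zc3h7a*. The 47 genes that fell had mostly few reads. *Fam227a*, *Fcgr4*, *Nsun7* and *Egr1* were among them, as were the long noncoding RNAs *Bc1*, *Gm36264* and *D830036C21Rik*. For *Nsun7* and these noncoding RNAs the libraries of the 20 and 40 min groups overlapped per ERCC read. *Bc1* had 5.653, 6.095 and 9.047 reads per 1000 ERCC reads at 20 min and 6.645, 5.784 and 4.742 at 40 min.

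**Figure D1:**
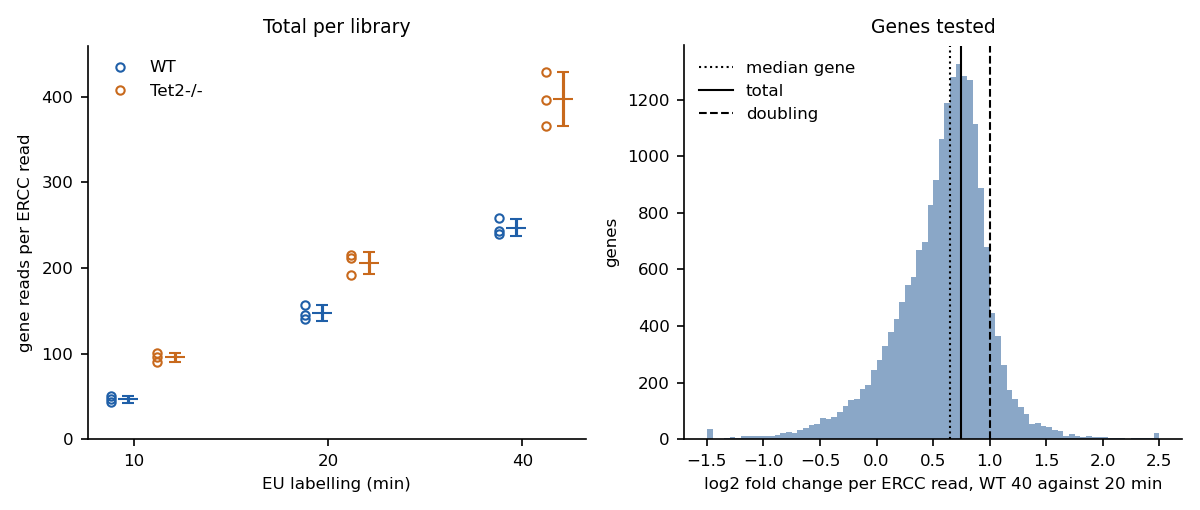
Gene reads per ERCC read in each library by EU labelling time, with bars for the mean ± SD of 3 libraries, and the distribution over 19910 genes of the log2 change per ERCC read from 20 to 40 min in WT cells. The WT libraries at 40 min sit between 239 and 259 reads per ERCC read and those at 20 min between 140 and 157. The gene distribution, with values outside the axis counted in its end bins, has its median at 0.64, left of the value of 1 that a doubling gives.

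The next question was which genes gained or lost their share of the labelled RNA. Shares were compared as CPM scaled by the trimmed mean of M values (TMM), which sets the bulk of genes to no change. The share rose for 3217 genes (16.2% of 19910) and fell for 2453 (12.3%). For 5488 of these 5670 genes the 3 libraries at 40 min did not overlap the 3 at 20 min. This was counted among called genes only, from the same values, so it is a description. Most shifts were small, and 1314 genes passed an absolute log2 fold change of 0.5, of which 270 rose and 1044 fell. Of the genes whose share fell, 1091 nevertheless rose per ERCC read and 45 fell. Scaled instead by the total of gene reads, so that a change is the rise of a gene against the rise of all labelled RNA, 1943 genes (9.76%) rose more than the total and 3595 (18.1%) rose less. This second scale lies lower, its median over genes being -0.10 against -0.02 for the share, so small gains of share below are not gains against the total.

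**Figure D2:**
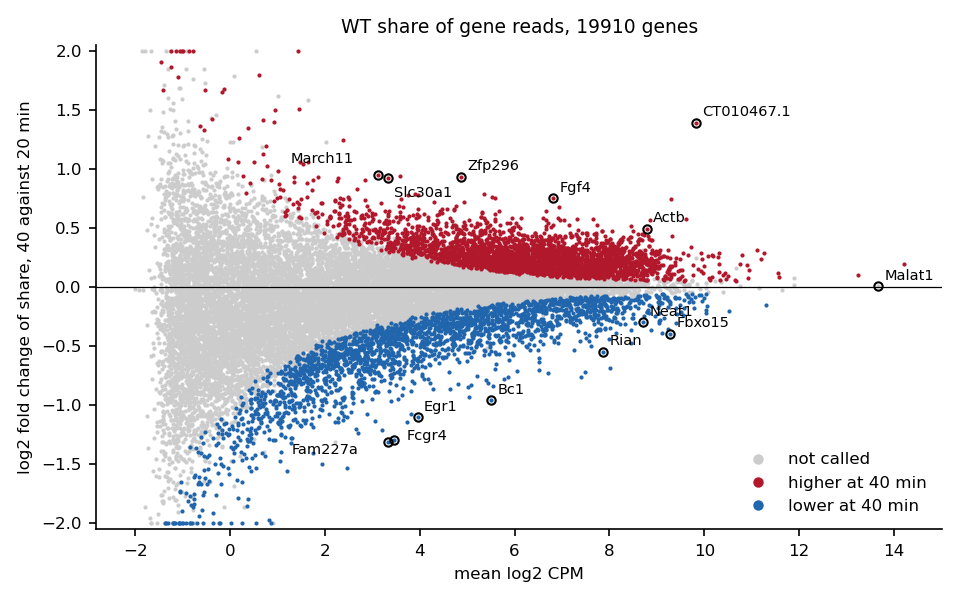
The log2 fold change of each gene's share of gene reads from 20 to 40 min in WT cells against its average log2 CPM, with values beyond ±2 drawn at the edge. Coloured points are the 3217 genes that rose and the 2453 that fell, and the 14 labelled genes, coding and noncoding, are described in the text; *Malat1*, at the far right, lies close to 0.

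Among protein-coding genes above 8 CPM on average (log2 CPM over 3), the 10 with the highest gain were *March11*, *Zfp296*, *Slc30a1*, *Arf6*, *Plk2*, *Hist1h3b*, *Gadd45a*, *Zfp281*, *Fam129b* and *Fgf4*, with log2 fold changes from 0.76 to 0.95. *Zfp296* (chr7:19577287-19580656, GRCm38, plus strand, 3 exons), a zinc finger gene active in pluripotent cells, had 22.3, 23.9 and 17.7 CPM at 20 min and 39.8, 42.1 and 40.4 CPM at 40 min. Its share rose by 0.94 ± 0.10 on the log2 scale (SE, edgeR adjusted p = 2.5e-09), and its level per ERCC read rose by 1.60. *Fgf4* (chr7:144847367-144865243, plus strand, 3 exons), which encodes the growth factor through which mES cells stimulate their own ERK signalling, had 83.0, 91.3 and 86.9 CPM at 20 min and 146, 141 and 155 CPM at 40 min. The groups were far apart for its spread, and the log2 gain was 0.76 ± 0.04 (SE, edgeR adjusted p = 2.2e-15). *Plk2*, a p53-inducible kinase, went from 37.2, 35.5 and 37.1 CPM to 63.7, 60.1 and 66.1 CPM, and *Zfp281*, a transcription factor that pluripotent cells need to leave the naive state, from 36.0, 37.0 and 38.0 CPM to 65.9, 61.3 and 61.0 CPM. All of these genes have short spans, under 50 kb, except *March11*, which spans over 100 kb (chr15:26309048-26409576) and encodes a ubiquitin ligase. *March11* had 5.41, 5.97 and 4.86 CPM at 20 min and 10.5, 10.3 and 10.5 CPM at 40 min (log2 gain 0.95 ± 0.14, edgeR adjusted p = 3.8e-06). *Fdps*, a cholesterol pathway gene, gained more (1.68 ± 0.50), but at 0.15 to 0.98 CPM over the 6 libraries its value rests on few reads.

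The 10 protein-coding genes of that level with the largest loss were *Fam227a*, *Fcgr4*, *Nsun7*, *Egr1*, *Dqx1*, *Iqch*, *Slc44a3*, *Exoc3l2*, *Arhgef40* and *Car5b*, with log2 fold changes from -1.31 to -0.88. *Fam227a* (chr15:79609576-79658956, minus strand, 19 exons) had 14.1, 13.3 and 17.2 CPM at 20 min and 6.70, 5.94 and 5.36 CPM at 40 min. Its share fell by 1.31 ± 0.15 on the log2 scale (SE, edgeR adjusted p = 1.5e-08), and its level per ERCC read fell too, by 0.64. *Egr1* (chr18:34859823-34864984, plus strand, 3 exons), an immediate early transcription factor induced by ERK signalling, had 15.8, 17.6 and 16.4 CPM at 20 min and 7.15, 7.29 and 8.76 CPM at 40 min. It was already falling from the shorter pulse, at which it had 61.6, 60.6 and 53.5 CPM. Its reads per 1000 ERCC reads were 3.00, 3.20 and 2.39 at 10 min, 2.34, 2.81 and 2.38 at 20 min and 1.70, 1.84 and 2.03 at 40 min, so the labelled *Egr1* RNA itself did not accumulate over the course (20 to 40 min: log2 change -0.43, edgeR adjusted p = 7.8e-03). *Iqch*, a calmodulin-binding motif gene, had close values in both groups, with 11.8, 12.4 and 12.4 CPM at 20 min and 6.57, 6.24 and 6.16 CPM at 40 min. *Fcgr4*, which encodes an Fc receptor of myeloid cells, had 16.8, 14.3 and 24.6 CPM and then 9.37, 8.55 and 4.86 CPM. The third library at 20 min was the highest of its group for all of these genes but *Egr1* and *Exoc3l2*, and it also had the highest percentage of reads outside genes (16.9%). Without that library 1862 genes were called lower in share in place of 2453, 27 in place of 47 fell per ERCC read, and each of the 10 genes above was still called lower in share.

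Of the 4752 genes of other biotypes, 105 (2.21%) rose in share and 588 (12.4%) fell, beside 16.2% and 12.3% of all genes tested, and their median was -0.23 against 0.01 for protein-coding genes. These genes had fewer reads, and protein-coding genes of low level had low medians too (-0.19 at log2 CPM of 0 to 2, where 1.28% rose and 8.83% fell). Among those with log2 CPM over 4, 13.1% of 328 rose and 39.0% fell, against 37.1% and 14.7% of 7547 protein-coding genes. Of 1612 lincRNA genes tested, 35 rose and 237 (14.7%) fell (median -0.32). Of 1182 antisense RNA genes, 19 rose and 147 (12.4%) fell (median -0.25), and of 101 lncRNAs that share a bidirectional promoter with a coding gene, 1 rose and 25 (24.8%) fell (median -0.48). Processed pseudogenes, the intronless copies of mRNAs, gave another balance: of 681 tested, 27 rose and 21 fell (median 0.08), although reads of such copies cannot always be told from those of their parent genes. Of 26 small nuclear RNA genes tested, 0 rose (edgeR, also 0 at an unadjusted p under 0.05 and by DESeq2) and 8 fell.

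The 5 noncoding genes with the largest loss at log2 CPM over 3 were *Gm36264*, *D830036C21Rik*, *AC126942.2*, *Bc1* and *Gm31323*. *Bc1*, the short RNA polymerase III transcript known from neurons and germ cells, had 38.2, 38.1 and 62.4 CPM at 20 min and 28.0, 23.0 and 20.4 CPM at 40 min. As the rule for naming required, the 3 lower libraries were those at 40 min, and the log2 change was -0.96 ± 0.21 (SE, edgeR adjusted p = 5.5e-04). The 5 with the largest gain were *CT010467.1*, *Gm34933*, *Znf41-ps*, *Gm20939* and *2900097C17Rik*. *CT010467.1*, annotated as a ribosomal RNA gene on chromosome 17, had 164, 145 and 132 CPM at 10 min, 768, 613 and 640 CPM at 20 min and 1889, 1916 and 1519 CPM at 40 min. Its log2 gain from 20 to 40 min was 1.40 ± 0.14 (SE, edgeR adjusted p = 2.2e-09); ribosomal RNA had been depleted from these libraries, so its level also carries what the depletion left.

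Most members of a list of short-lived mRNAs gained share. Immediate early genes, also short-lived, were kept in a list of their own, given below. The members were chosen with earlier results of these data known, so the counts are a description. Of 45 tested members, 29 rose and 2 fell, with a median of 0.34, against 16.2% and 12.3% of all genes and a median of -0.02. Calls were more frequent where reads were many. Of 3871 protein-coding genes at log2 CPM of 4 to 6, which holds the median level of this list, 969 rose and 530 fell (median 0.06). At 6 to 8, 48.0% rose and 14.8% fell (median 0.10). Span went with the change too, and the list's median span was 5309 bases. At log2 CPM of 4 to 6, 43.4% of 205 protein-coding genes under 5 kb rose and 4.39% fell (median 0.19). Of 383 such genes of 5 to 10 kb, 37.1% rose and 4.96% fell (median 0.15). Against the total, 23 of the list's members rose more and 2 less. Per ERCC read, 51.1% of the list had a fitted change above a doubling, whether or not it passed the test, against 9.99% of all genes. In those span classes it was 25.4% and 13.3%. *Myc*, the growth-promoting transcription factor, had 7.70, 10.9 and 9.27 CPM at 20 min and 14.5, 14.2 and 14.1 CPM at 40 min (log2 gain 0.62 ± 0.12, edgeR adjusted p = 8.5e-05). *Mcl1*, an anti-apoptotic BCL2 relative whose mRNA and protein both turn over fast, had 112, 116 and 117 CPM and then 160, 151 and 153 CPM. *Gadd45a*, a growth arrest and DNA damage gene, had 12.9, 9.19 and 12.9 CPM and then 21.7, 18.8 and 19.7 CPM. None of these groups overlapped, which for *Gadd45a* was part of the rule by which it was named. The inhibitors of differentiation *Id1* (1.43) and *Id2* (0.75), the ERK phosphatase gene *Dusp6* (0.57), the cytokine signalling inhibitor *Socs3* (0.62) and the NF-κB inhibitor *Nfkbia* (0.68) also rose on the log2 scale. The 2 that fell were *Klf9* (-0.09) and *Etv5*, an ETS factor downstream of ERK, which had 466, 469 and 466 CPM at 20 min and 394, 388 and 404 CPM at 40 min.

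Immediate early genes, the first to answer a growth stimulus, did not move together. Of 16 tested, 2 (12.5%) rose, 3 (18.8%) fell and the median was 0.05 (-0.02 against the total), beside 16.2% and 12.3% of all genes tested. *Klf10* had 22.2, 22.6 and 21.6 CPM at 20 min and 34.1, 35.5 and 35.0 CPM at 40 min (log2 gain 0.66 ± 0.08, edgeR adjusted p = 3.1e-08), and the orphan receptor gene *Nr4a1* had 18.8, 14.6 and 15.7 CPM and then 23.8, 24.4 and 26.1 CPM. *Egr1* (-1.10), *Atf3* (-0.71) and *Srf* (-0.23) fell on the log2 scale. *Fos* had 5.21, 3.58 and 4.41 CPM at 20 min and 5.28, 4.12 and 3.31 CPM at 40 min, and these overlapping values gave no call (-0.05 ± 0.21, edgeR adjusted p = 0.89).

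Targets of p53, the transcription factor that answers DNA damage, rose in 14 of 20 tested cases (70.0%), with a median of 0.28. By edgeR 0 fell (1 at an unadjusted p under 0.05, and 1 by DESeq2). Of 2382 protein-coding genes of like span and level (10 to 30 kb, log2 CPM over 4), 38.6% rose and 6.42% fell (median 0.11). The list's median level was a log2 CPM of 6.0, between 2 ranges of that class. At log2 CPM of 6 to 8, 57.8% of 657 genes rose and 5.63% fell (median 0.14). At 4 to 6, 29.5% of 1629 genes rose and 6.51% fell (median 0.09). *Ccng1*, a cyclin gene that p53 activates, had 91.3, 92.1 and 89.2 CPM at 20 min and 136, 133 and 137 CPM at 40 min (log2 gain 0.57 ± 0.04, edgeR adjusted p = 1.1e-13). *Polk*, a DNA polymerase that copies damaged templates, had 212, 215 and 210 CPM and then 264, 264 and 275 CPM. The cell cycle inhibitor gene *Cdkn1a* (0.35), the apoptosis gene *Pmaip1* (0.49) and *Mdm2* (0.25), which encodes the ligase that degrades p53, rose too. *Plk2*, *Btg2*, *Cdkn1a* and *Mdm2* also stand in the list of short-lived mRNAs, so the lists are not independent.

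Heat shock genes rose in 9 of 16 cases (56.2%), with a median of 0.19. By edgeR 0 fell (also 0 at an unadjusted p under 0.05 and by DESeq2). Of 493 protein-coding genes of like span and level (5 to 10 kb, log2 CPM over 4), 43.2% rose and 4.67% fell (median 0.15). *Hspa8*, the constitutive HSP70 chaperone, had 691, 675 and 675 CPM at 20 min and 870, 841 and 828 CPM at 40 min (log2 gain 0.32 ± 0.02, edgeR adjusted p = 2.6e-12). *Hsp90ab1*, *Hsph1* and the HSP40 gene *Dnajb1* gained 0.28, 0.34 and 0.39. Cells mount the integrated stress response through the translation factor eIF2. Among 1629 protein-coding genes of the span and level of its list (10 to 30 kb, log2 CPM of 4 to 6), 29.5% rose and 6.51% fell (median 0.09). Of its 22 tested genes 7 (31.8%) rose and 1 (4.55%) fell (median 0.09). *Atf4*, its main transcription factor, had 90.5, 86.1 and 85.9 CPM and then 115, 107 and 113 CPM, while *Asns*, the asparagine synthetase gene that ATF4 activates, had 386, 394 and 401 CPM and then 349, 341 and 358 CPM. The shares of the factor and of its target thus moved in opposite directions, by 0.35 ± 0.05 and -0.17 ± 0.02 on the log2 scale (SE, edgeR adjusted p = 3.1e-06 and 9.1e-07). Per ERCC read *Asns* still rose, by 0.50 (edgeR adjusted p = 3.9e-08).

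Pluripotency genes rose in 16 of 28 cases (57.1%) and fell in 3 (10.7%), with a median of 0.18. Of 657 protein-coding genes of like span and level (10 to 30 kb, log2 CPM of 6 to 8), 57.8% rose and 5.63% fell (median 0.14). *Pou5f1*, which encodes the core factor OCT4, had 83.8, 86.9 and 77.4 CPM at 20 min and 110, 110 and 104 CPM at 40 min (log2 gain 0.39 ± 0.05, edgeR adjusted p = 2.3e-07). *Nanog*, its partner, moved less, from 297, 304 and 300 CPM to 320, 339 and 340 CPM (0.15 ± 0.03, edgeR adjusted p = 7.7e-05). *Sall4* (0.55), *Lin28a* (0.52), *Klf4* (0.42) and *Utf1* (0.69) rose on the log2 scale. The genes that fell were *Prdm14* (-0.41), *Tfcp2l1* (-0.10) and *Fbxo15*, an F-box gene used as a marker of pluripotent cells, which had 683, 680 and 672 CPM at 20 min and 506, 525 and 520 CPM at 40 min. Markers of other cell types gave few calls. Of 10 tested primitive endoderm genes 0 rose (edgeR, also 0 at an unadjusted p under 0.05 and by DESeq2) and 2 fell, *Gata4* and *Lamb1* (median -0.15). Of 7 trophectoderm genes 0 were called in either direction (edgeR, also 0 at an unadjusted p under 0.05 and by DESeq2; median -0.09), and of 13 genes of the 2-cell-like state only *Zscan4c* fell. Calls were few at these levels. At log2 CPM of 0 to 2, 1.59% of 440 protein-coding genes of 5 to 10 kb rose and 4.09% fell. Under 5 kb, 3.93% of 433 rose and 1.62% fell. Feeder and fibroblast genes rose in 4 of 12 cases (33.3%) and fell in 1 (8.33%), beside 16.2% and 12.3% of all genes tested (median 0.13). Those that rose included *Col1a1* (0.61), *Fbn1* (0.31), *Sparc* (0.21) and *Fn1* (0.13), of which the last is also expressed by mES cells. The collagen gene *Col5a1* fell (-0.35).

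Genes of the Zfp class rose in 124 of 363 cases (34.2%) and fell in 12 (3.31%), with a median of 0.13 (0.05 against the total). This class is the large family of zinc finger transcription factors with many KRAB-domain repressors. Of 1629 protein-coding genes of like span and level (10 to 30 kb, log2 CPM of 4 to 6), 29.5% rose and 6.51% fell (median 0.09). *Zfp534* had 126, 123 and 116 CPM at 20 min and 183, 175 and 182 CPM at 40 min, and *Zfp990* had 148, 156 and 140 CPM and then 198, 199 and 208 CPM. Their log2 gains were 0.57 ± 0.04 and 0.45 ± 0.04 (SE, edgeR adjusted p = 3.7e-14 and 6.3e-12). Reads of neighbouring copies of these genes on chromosome 4 can be hard to tell apart.

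The lists of genes with stable mRNAs in this paragraph had small medians. Their percentages of genes that rose were below those of protein-coding genes of like level, or of like span and level. Of 78 cytosolic ribosomal protein genes 31 (39.7%) rose and 4 fell (median 0.11, 0.04 against the total), against 48.0% higher and a median of 0.10 for all protein-coding genes at log2 CPM of 6 to 8, where the list's own median level lay. *Rplp0*, a stalk protein of the large subunit, had 173, 172 and 165 CPM at 20 min and 209, 209 and 217 CPM at 40 min (log2 gain 0.31 ± 0.03, edgeR adjusted p = 9.5e-09), and *Rpl19* had 199, 203 and 202 CPM and then 256, 234 and 253 CPM. *Rps13* (-0.20), *Rps20* (-0.15), *Rps15a* (-0.12) and *Rpl37* (-0.10) fell. Because the genome holds many pseudogenes of these genes, reads of their exons are the least certain. Of 74 mitochondrial ribosomal protein genes 13 (17.6%) rose and 4 fell (median 0.09), and of 37 proteasome genes 9 (24.3%) rose and 1 fell (median 0.08). Of 79 nuclear genes of oxidative phosphorylation 12 (15.2%) rose and 6 fell, and their median of 0.04 turned to -0.03 against the total. Cholesterol synthesis genes rose in 4 of 21 cases and fell in 0 (edgeR; 2 at an unadjusted p under 0.05 and 0 by DESeq2), with a median of 0.07 that turned to -0.01 against the total. Counted against the total, 19 cytosolic ribosomal protein genes rose more and 8 less, whereas the balance turned for mitochondrial ribosomal proteins (2 more, 8 less), oxidative phosphorylation (7 more, 10 less) and cholesterol synthesis (1 more, 3 less).

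Glycolysis and glucose transporter genes rose in 8 of 21 cases (38.1%) and fell in 1 (median 0.14). Of 1629 protein-coding genes of like span and level (10 to 30 kb, log2 CPM of 4 to 6), 29.5% rose and 6.51% fell (median 0.09). *Hk2*, the hexokinase that feeds glucose into the pathway, had 302, 310 and 305 CPM at 20 min and 390, 381 and 373 CPM at 40 min, while *Hk1* fell (-0.29). *Pkm*, which makes pyruvate at its end, had 292, 296 and 295 CPM and then 337, 334 and 351 CPM. *Gapdh* overlapped between the times, with 49.2, 47.0 and 59.1 CPM and 55.8, 46.9 and 44.8 CPM (-0.08 ± 0.07, edgeR adjusted p = 0.50). *Actb*, the cytoskeletal actin gene often used as a reference, had 413, 432 and 361 CPM and then 536, 554 and 609 CPM (0.50 ± 0.06, edgeR adjusted p = 1.4e-08).

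Replication-dependent histone genes rose in 16 of 62 cases (25.8%) and fell in 3 (4.84%), with a median of 0.22. They have no introns, and their mRNAs end in a stem-loop without a poly(A) tail. Of 367 protein-coding genes of like span and level (under 5 kb, log2 CPM of 2 to 4), 19.9% rose and 2.72% fell (median 0.14). *Hist1h3b* had 14.9, 13.7 and 10.7 CPM at 20 min and 20.3, 20.6 and 26.7 CPM at 40 min. *Hist1h1t*, the testis form of the linker histone, and *Hist2h2be* fell (-0.96 and -0.84). Copies of these genes are close in sequence, so single members are uncertain. Of 23 mitochondrially encoded genes 5 (21.7%) rose and 2 (8.7%) fell, beside 16.2% and 12.3% of all genes tested. Their median of 0.02 turned to -0.05 against the total. *mt-Rnr1*, the small ribosomal RNA of mitochondria, had 2179, 2171 and 2229 CPM and then 2802, 2782 and 2614 CPM (0.32 ± 0.03, edgeR adjusted p = 4.4e-11).

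Long noncoding RNAs that remain in the nucleus split into risers and fallers. Of 18 tested, 4 (22.2%) rose and 6 (33.3%) fell (median -0.03). Of 70 genes of other biotypes at like level (log2 CPM of 6 to 8), 18.6% rose and 42.9% fell (median -0.07). *Rian* (chr12:109603940-109661716, plus strand), a long transcript of the imprinted Dlk1-Dio3 domain that carries snoRNAs, had 302, 309 and 288 CPM at 20 min and 204, 210 and 202 CPM at 40 min (log2 change -0.55 ± 0.03, edgeR adjusted p = 1.8e-14). Its neighbours *Mirg* (-0.20) and *Meg3* (-0.16) fell as well. *Neat1*, the scaffold of paraspeckles, had 570, 565 and 571 CPM and then 464, 463 and 463 CPM. *Kcnq1ot1*, the imprinted transcript that silences its neighbours, rose from 305, 306 and 310 CPM to 393, 406 and 416 CPM (0.40 ± 0.02, edgeR adjusted p = 2.7e-14). *Malat1*, which lies beside *Neat1* in the genome and is known to be very stable, kept close values with a log2 change of 0.01 ± 0.01 (edgeR adjusted p = 0.75), and its level per ERCC read rose by 0.68, beside 0.75 for the total. Against the total this was a call for a smaller rise (-0.07, edgeR adjusted p = 6.2e-05). Noncoding snoRNA host genes, whose spliced RNA is known to be degraded by nonsense-mediated decay, fell in 4 of 15 cases and rose in 0 (edgeR, also 0 at an unadjusted p under 0.05 and by DESeq2; median -0.10, and -0.18 against the total). *Gas5* had 180, 177 and 211 CPM and then 168, 161 and 166 CPM, and *Zfas1* had 66.4, 71.5 and 67.9 CPM and then 59.3, 56.3 and 58.3 CPM. *Snhg8* (-0.35) and *Dancr* (-0.23) were the others. Of 240 genes of other biotypes at the level of these hosts (log2 CPM of 4 to 6), 37.9% fell, beside 26.7% of the hosts, and 9.58% rose.

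**Figure D3:**
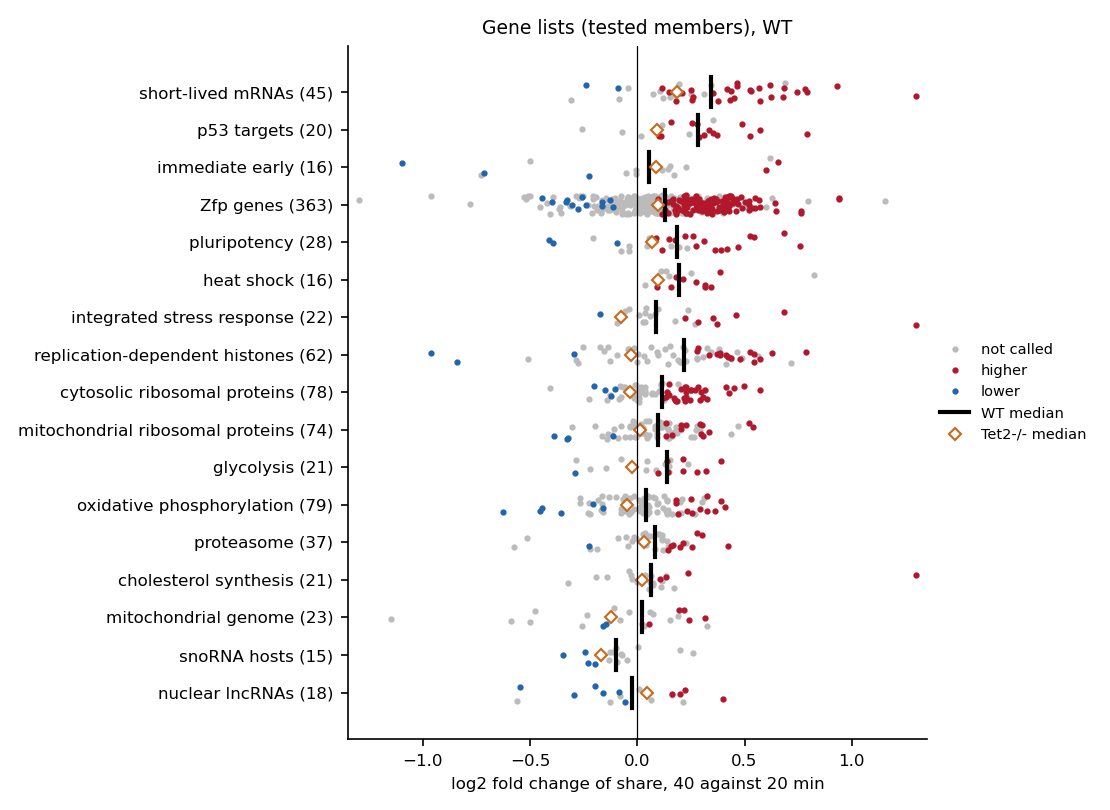
Log2 fold changes of the share from 20 to 40 min in WT cells for the tested members of each gene list, a point per gene, with numbers of tested members in brackets, bars at the WT medians, diamonds at the Tet2-/- medians and values beyond ±1.3 drawn at the edge. Of the 17 lists drawn, short-lived mRNAs have the highest WT median (0.34) and snoRNA hosts the lowest (-0.10).

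A group of genes of the response to zinc and other metals was looked at after its members had been seen among the highest genes, so its counts are a description. Of 7 genes chosen, *Slc30a1*, *Mt2*, *Mt1* and *Hmox1* rose, *Gclc* fell and *Mtf1* and *Slc39a10* were not called. *Slc30a1*, the zinc exporter ZnT1, had 7.85, 8.0 and 7.29 CPM at 20 min and 14.9, 14.2 and 14.8 CPM at 40 min (log2 gain 0.93 ± 0.11, edgeR adjusted p = 6.1e-08). *Mt2*, a metallothionein that binds zinc, had 17.6, 20.0 and 17.1 CPM and then 31.1, 28.6 and 30.2 CPM (0.72 ± 0.11, edgeR adjusted p = 5.6e-06), and its neighbour *Mt1* gained 0.63 ± 0.14. *Gclc*, which encodes a subunit of the enzyme of glutathione synthesis, had 149, 140 and 139 CPM and then 120, 124 and 124 CPM. *Mt1*, *Mt2* and *Slc30a1* are known targets of MTF1, which binds metal response elements. The 250 bases before the annotated start of *Mt2* and of *Slc30a1* (RefSeq, GRCm38.p6, plus strand) are shown with matches to the element's core on either strand, TGCACNC or TGCGCNC, in capitals; *Mt2* held 3 at chr8:94172368-94172617, *Slc30a1* held 1 at chr1:191906531-191906780, and the same window of *Mt1* held 1, although its annotated start may lie upstream of the main start site, in which case that window is not its promoter.
Mt2: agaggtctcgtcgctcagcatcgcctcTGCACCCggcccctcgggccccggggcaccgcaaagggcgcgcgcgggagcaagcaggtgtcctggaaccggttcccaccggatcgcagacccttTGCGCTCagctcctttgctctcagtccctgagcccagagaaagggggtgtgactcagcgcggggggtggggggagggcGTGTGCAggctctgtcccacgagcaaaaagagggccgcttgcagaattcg
Slc30a1: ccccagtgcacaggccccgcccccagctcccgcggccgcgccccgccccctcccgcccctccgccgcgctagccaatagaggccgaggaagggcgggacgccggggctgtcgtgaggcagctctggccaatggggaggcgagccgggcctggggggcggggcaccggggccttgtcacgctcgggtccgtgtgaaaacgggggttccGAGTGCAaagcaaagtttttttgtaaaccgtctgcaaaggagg
Of 32850 promoter windows of this length 21.4% held at least 1 such core and 1.26% at least 3. A match is only a run of letters, and 1 annotated start per gene was searched.

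Among well-covered genes, longer genes had lower changes of share. Among 7547 protein-coding genes with log2 CPM over 4, the Spearman correlation across genes of span with the log2 change was -0.31, against -0.03 for exonic length, -0.06 for the number of exons and 0.11 for the level itself; genes are not independent replicates, and all share the same 6 libraries. Over all 15158 protein-coding genes tested the level went further with the change (0.32) than span did (-0.19). Of 304 genes under 5 kb, 46.4% rose and 4.93% fell (median 0.18). Of 493 genes of 5 to 10 kb, 43.2% rose and 4.67% fell (median 0.15), and of 2382 genes of 10 to 30 kb 38.6% rose and 6.42% fell (median 0.11). Of 2916 genes of 30 to 100 kb, 42.4% rose and 12.2% fell (median 0.09). Of 1452 genes over 100 kb, 20.0% rose and 38.5% fell (median -0.06). The order of the medians was the same among genes that overlap no other gene, for which reads are not lost to a neighbour: 0.19, 0.16, 0.11, 0.09 and -0.04, over 179 genes in the shortest class and 273 in the longest.

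Long genes have more reads because introns are counted, and the level also went with the change, so the classes were read within a range of level. At log2 CPM of 4 to 6 the medians were 0.19 under 5 kb (205 genes), 0.15 at 5 to 10 kb (383), 0.09 at 10 to 30 kb (1629), 0.00 at 30 to 100 kb (1234) and -0.12 over 100 kb (420). Above log2 CPM of 8 they were 0.17 (24 genes), 0.24 (24), 0.11 (96), 0.17 (307) and 0.00 (324). Genes over 100 kb thus had the lowest median in both ranges, whereas the shorter classes stood in order of span at 4 to 6 but not above 8. At log2 CPM of 6 to 8 the class under 5 kb (0.166) stood just below that of 5 to 10 kb (0.168). The classes under 100 kb were in order of span at 2 to 4 (0.14, 0.11, -0.04 and -0.24) and at 0 to 2. Below log2 CPM of 4 the lowest class was that of 30 to 100 kb, with -0.24 (724 genes) at log2 CPM of 2 to 4 against -0.14 (454 genes) over 100 kb.

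**Figure D4:**
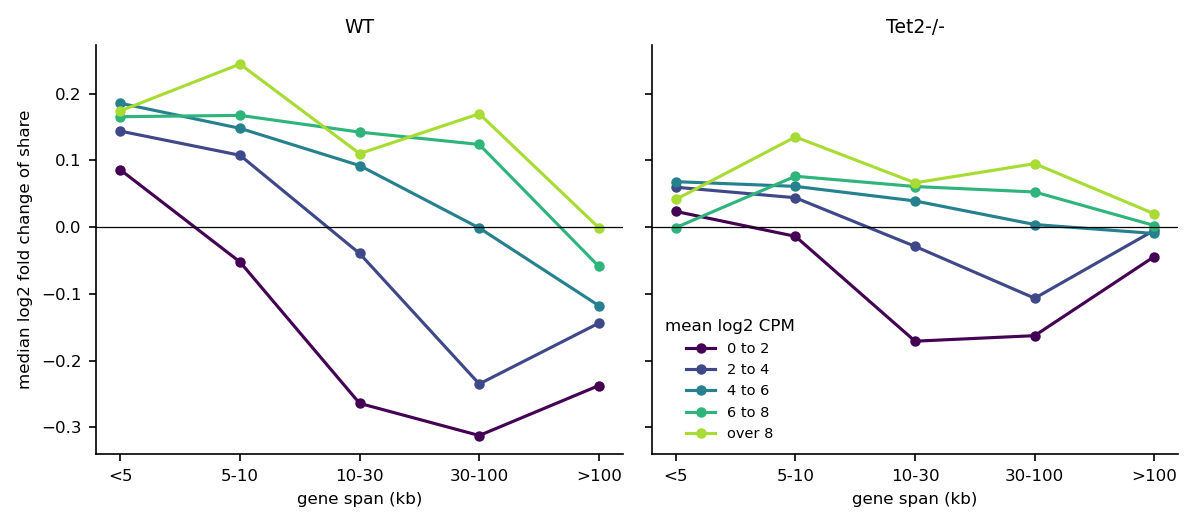
Median log2 change of the share from 20 to 40 min by gene span in kb for protein-coding genes, with a line for each range of mean log2 CPM, in WT and in Tet2-/- cells. At log2 CPM of 4 to 6 the WT line falls from 0.19 under 5 kb to -0.12 over 100 kb, and the Tet2-/- line from 0.07 to -0.01.

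The part of a gene that is intron ordered the genes in the same way. At log2 CPM over 4, genes with under 20% of their span in introns had a median of 0.21 (147 genes, 51.7% higher, 6.12% lower), those with 50% to 80% had 0.14 (2187 genes), and those with over 95% had -0.07 (973 genes, 16.1% higher, 38.6% lower). Single-exon genes, which need no splicing, had the highest median of the exon classes: 0.29 over 48 genes, of which 28 rose and 3 fell. Genes of 3 to 4 exons had 0.11 (565 genes) and those of over 32 exons 0.03 (404 genes). Number of exons and span go together, and among genes of 10 to 30 kb the medians did not fall steadily with exons: genes of 2 exons had 0.18 (28 genes), those of 3 to 4 exons 0.13 (231 genes), those of 5 to 8 exons 0.08 (827 genes), those of 9 to 16 exons 0.10 (978 genes), those of 17 to 32 exons 0.18 (298 genes, 60.7% higher, 3.02% lower) and those of over 32 exons 0.26 (19 genes, 68.4% higher).

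The same comparison in Tet2-/- cells used other libraries, and there the total per ERCC read went from 206 ± 12.7 to 397 ± 31.6 (SD, n = 3 each), a ratio of 1.93. The share rose for 1827 genes (9.18%) and fell for 1088 (5.46%). Of the 3217 genes that rose in WT, 1250 (38.9%) rose in Tet2-/- as well, which is 68.4% of the genes that rose there, and 20 were called in the opposite direction. Of the 2453 that fell in WT, 667 (27.2%) fell in Tet2-/- (61.3% of the genes that fell there) and 66 were opposite. The genes that rose in WT had a median gain of 0.25 in WT and 0.12 in Tet2-/-, and those that fell had -0.44 and -0.17 (called in WT, so their WT medians are a description). Tested as a difference between the genotypes, the change was higher in WT for 689 genes (3.46%) and lower for 577 (2.90%). This balance turned among the 15589 genes with at least 10 counts in each of the 12 libraries at 20 and 40 min, of which 578 were higher and 714 lower.

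*Zfp296* was among the genes with a difference: in Tet2-/- it had 34.3, 37.3 and 32.9 CPM at 20 min and 35.9, 36.6 and 35.6 CPM at 40 min. The WT change exceeded this by 0.89 ± 0.13 on the log2 scale (edgeR adjusted p = 5.1e-05). *Mt2* likewise had 38.5, 42.0 and 42.2 CPM and then 39.7, 38.4 and 39.4 CPM in Tet2-/-, and the difference of the changes was 0.79 ± 0.15 (edgeR adjusted p = 1.1e-03). *Fgf4* rose in both genotypes and more in WT, by 0.48 ± 0.06 (edgeR adjusted p = 1.3e-06). *Fam227a* fell more in WT (-1.02 ± 0.22, edgeR adjusted p = 2.6e-03). In contrast, *March11*, *Klf10*, *Rian*, *Kcnq1ot1*, *Nr5a2* and *Hk2* gave no call for a difference (edgeR). For *Rian* the difference was -0.04 ± 0.05 and for *Hk2* 0.01 ± 0.04, whereas for *March11*, at -0.11 ± 0.20, the error leaves room for a larger one. Of 78 cytosolic ribosomal protein genes 20 had a higher change in WT and 0 a lower one (edgeR, also 0 at an unadjusted p under 0.05 and by DESeq2). In Tet2-/- 4 of them rose and 13 fell (median -0.03). These genes were short and well covered, with a median span of 3328 bases and a median log2 CPM of 6.83. Of 75 protein-coding genes under 5 kb at log2 CPM of 6 to 8, a class that can overlap this list, 24 had a higher change in WT and 0 a lower one. How many of these 24 belong to the list was not counted, so whether the result is particular to ribosomal protein genes cannot be told. In Tet2-/- cells the medians of the span classes ran from 0.05 under 5 kb to 0.00 over 100 kb at log2 CPM over 4; a difference between the genotypes in this relation was not tested.

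**Figure D5:**
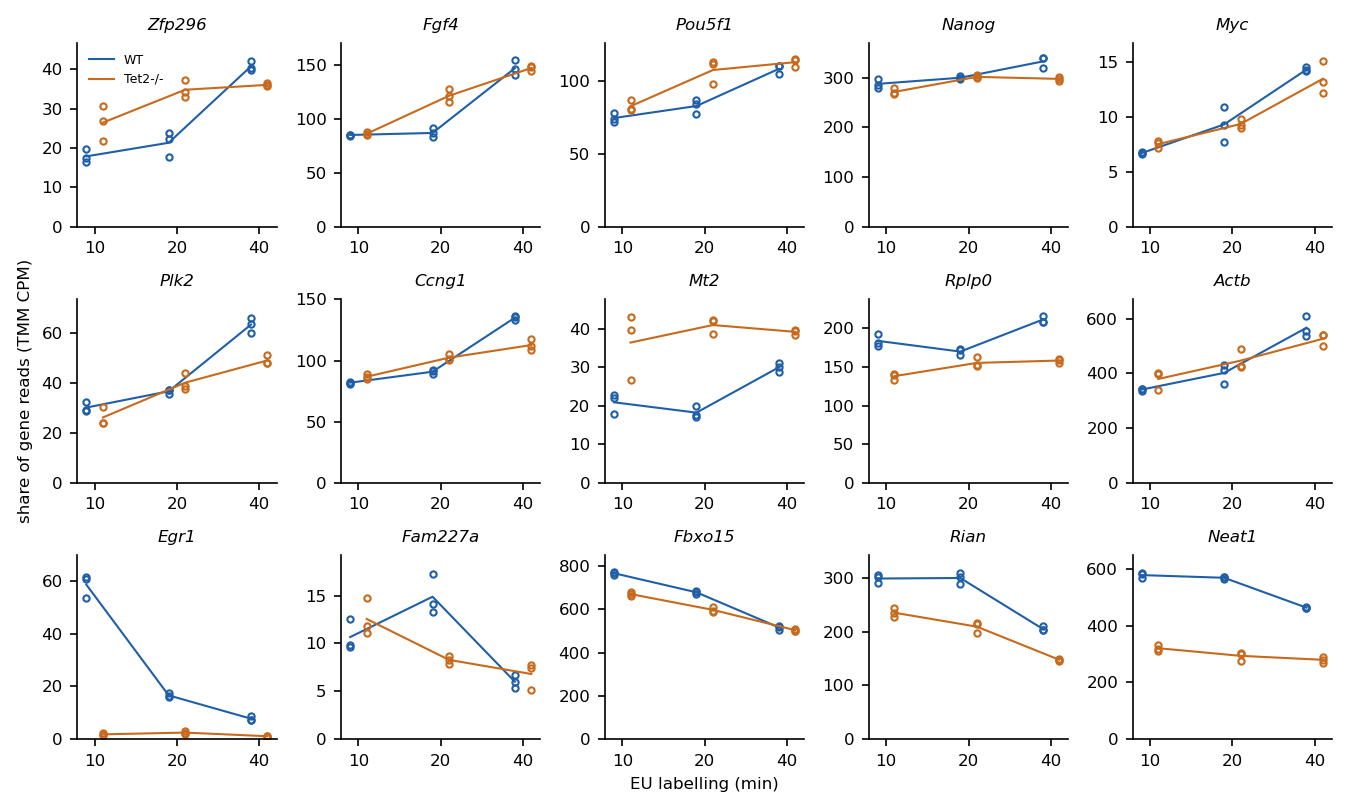
TMM-scaled CPM of 15 genes in each WT and Tet2-/- library at 10, 20 and 40 min of EU. Points are libraries and lines join the means of 3 libraries; *Zfp296* and *Mt2* rise from 20 to 40 min in the WT libraries while their Tet2-/- libraries at the same times overlap, *Rian* falls in both genotypes, and *Egr1* falls over the WT course from 61.6 to under 10 CPM.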

How the data were processed

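Nascent RNA was labelled with EU in WT and Tet2-/- mES cells, captured and sequenced as stranded total RNA libraries with ERCC spike-in RNAs. The deposited values are raw read counts per gene that the authors made with Trimmomatic 0.39, HISAT2 2.2.1 and HTSeq 0.12.4 on mm10 with GENCODE M19 (versions from the submitters' processing notes); the counting options are not given in the sources used here, and intron and strand use was read from the counts of genes nested in introns. The 18 files hold 54446 genes and 92 ERCC RNAs, and 54409 genes matched GENCODE M21 of the same build, which gave symbols, spans and exons. Rows that name no gene were left out of library sizes; reads outside genes were 13.2% to 16.9% in the 6 WT libraries compared.

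Groups came from the sample labels. edgeR 4.0.16 (R 4.3.3, limma 3.58.1) was fitted to all 18 libraries with a coefficient for each of 6 groups, on 19910 genes kept by filterByExpr with a minimum count of 10, and quasi-likelihood tests were called at a Benjamini-Hochberg adjusted p under 0.05. TMM factors from genes alone gave changes of share, the total of gene reads gave the rise against the total, and ERCC totals gave levels per ERCC read. The difference between genotypes was the interaction term. Single values were compared by an exact permutation test over libraries. The steps were tested on simulated data.

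Named genes were, by rule, the 10 highest and 10 lowest protein-coding and the 5 highest and 5 lowest other genes with log2 CPM over 3 and no overlap between times, 3 genes of each list, and a few reference genes; others are given as list members. The members and lists were chosen with earlier results of these data known, and the metal list after the values were seen. Alternatives were DESeq2 1.42.0, other filters, scalings, sets of libraries, a fold threshold and the omission of each library.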

Additional observations from a re-analysis of the deposited data

Results flagged for a closer look

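The change from 20 to 40 min differed between WT and Tet2-/- cells by the interaction test (edgeR, adjusted p under 0.05) for 1266 genes, 689 with the higher change in WT and 577 with the lower. Of the 98 genes named by rule, 34 were among them, 28 with a higher and 6 with a lower change in WT. Apart from a few reference genes, the 98 were named by their WT change, which is part of the difference. Their counts are thus a description of a selected set. The cause of the differences was not tested. The values that follow are the WT change minus the Tet2-/- change on the log2 scale.

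Among growth, stress and p53 genes the difference was 0.89 for *Zfp296*, 0.79 for *Mt2*, 0.50 for *Plk2*, 0.48 for *Fgf4*, 0.43 for *Ccng1* and 0.30 for *Polk*. It was 0.41 for *Fam129b*, 0.32 for *Cebpg*, 0.31 for *Atf4*, 0.23 for *Mcl1*, 0.23 for *Hspa8* and 0.12 for *Hsp90ab1*. Of the pluripotency factors, *Pou5f1* stood at 0.32 and *Nanog* at 0.17. The ribosomal protein genes *Rpl12*, *Rpl19* and *Rplp0* differed by 0.35, 0.31 and 0.29, and the mitochondrial *Mrps22* by 0.48.

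The histone genes *Hist1h3a* and *Hist1h2bk* differed by 0.67 and 0.49. *Actb* differed by 0.26, *Ndufs1* by 0.24, *Psmd4* by 0.24, *Zfp568* by 0.23, *Psmd7* by 0.22, *mt-Co1* by 0.18 and *Fn1* by 0.11. The rRNA-annotated *CT010467.1* had the highest value, 1.15. The 6 genes with the lower change in WT were *Fam227a* (-1.02), *Iqch* (-0.97), *Car5b* (-0.82), *Neat1* (-0.22), *Etv5* (-0.19) and *Fbxo15* (-0.15).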

How the results depend on the processing

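With 3 libraries a group the total per ERCC read cannot reach an exact p under 0.1, and genes that overlap a neighbour on their strand lost reads in the counting. Against a minimum fold of 1.2 (glmTreat), 325 genes rose in share and 460 fell, in place of 3217 and 2453. The 47 genes that fell per ERCC read became 30 with DESeq2 and ERCC size factors and 75 with the 6 libraries fitted alone. DESeq2 gave 3202 genes higher and 2380 lower in share, and the interaction 865 and 693. Of genes with at least 10 counts in each of the 12 libraries, the interaction called 578 higher and 714 lower in WT, which turned its balance; the cause was not tested.

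With each library left out in turn, 2683 to 2934 genes rose in share and 1830 to 2132 fell, 1601 to 1701 rose more than the total and 2707 to 3151 less, and 11554 to 12369 rose per ERCC read and 27 to 64 fell (27 without WT 20 min replicate 3 and 28 without WT 40 min replicate 3). The interaction gave 474 to 635 higher and 419 to 473 lower, and the ratio of totals per ERCC read ranged from 1.64 to 1.74. Genes without a call that turned sign were *Malat1* (-0.008014 with at least 10 counts in each library, and -0.003241 to 0.015 when a library was left out), *Fos* (-0.25 to 0.097) and *Gapdh* (-0.18 to 0.034). Of the values of named genes recomputed under the alternatives, 1747 kept their direction and side of the threshold, 124 lost their call and 6 turned sign.

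Same-numbered libraries at 20 and 40 min did not deviate together (correlations of -0.061, -0.049 and -0.261 in WT), so the numbers were not taken to pair them. With a replicate block the calls were 3213 higher and 2455 lower in share, 1951 and 3573 against the total, 12435 and 51 per ERCC read, and 691 and 570 for the interaction.

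In Tet2-/- libraries the medians of the share by span were 0.050, 0.064, 0.045, 0.042 and 0.0034 from the shortest to the longest class, and genes over 100 kb with no overlapping gene had -0.036 in WT. The Tet2-/- medians were 0.052 for genes of 1 exon, -0.098 for lincRNA, -0.11 for antisense and 0.026 for processed pseudogenes. By list they were 0.19 for short-lived mRNAs, 0.094 for Zfp genes, -0.033 and 0.010 for cytosolic and mitochondrial ribosomal proteins, -0.049 for oxidative phosphorylation, -0.023 for glycolysis, 0.032 for the proteasome, 0.024 for cholesterol synthesis, -0.028 for histones, -0.12 for mitochondrially encoded genes, -0.17 for snoRNA hosts, 0.043 for nuclear lncRNAs, 0.089 for p53 targets, 0.098 for heat shock, -0.076 for the integrated stress response, 0.067 for pluripotency, -0.68 for fibroblast genes, 0.17 for trophectoderm and -0.24 for 2-cell-like genes.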

Other observations

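Most small RNA genes had no reads. Of 1507 snoRNA genes, 1373 had 0 reads over the 6 WT libraries at 20 and 40 min, and 14 had enough reads to be tested. The same held for 1898 of 2202 miRNA genes and 1163 of 1383 snRNA genes, of which 42 and 26 were tested. A gene that overlaps another on its strand lost reads in the counting, so 0 reads need not mean that no RNA was labelled. How many of these genes lie so was not counted.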
